A study of Aspergillus nidulans with 12 samples.

Results

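Among the 10988 genes of the deposited *Aspergillus nidulans* table, 7 genes of ethanol metabolism were taken by their gene identifiers. They were the pyruvate decarboxylase genes *pdcA* (AN4888) and *pdcB* (AN8396), the alcohol dehydrogenase genes *alcA* (AN8979), *alcB* (AN3741) and *alcC* (AN2286), the aldehyde dehydrogenase gene *aldA* (AN0554) and *alcR* (AN8978), the gene of the transcriptional activator of the ethanol regulon.

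Pyruvate decarboxylase splits pyruvate, the end product of glycolysis, into acetaldehyde and carbon dioxide, and alcohol dehydrogenases convert acetaldehyde and ethanol into each other. Aldehyde dehydrogenase oxidizes acetaldehyde to acetate, which enters central metabolism as acetyl-CoA. In *A. nidulans*, growth on ethanol needs alcohol dehydrogenase I (*alcA*) and *aldA*, both of which are activated by AlcR and repressed through the carbon catabolite repressor CreA, while alcohol dehydrogenase III (*alcC*) is known from responses to low oxygen.

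RNA was sequenced from mycelia of the reference strain THS30 (pyrG89; AfupyrG+; pyroA4; pyroA+) and of the mutant TNJ92 (pyrG89; AfupyrG+; pyroA4; ΔatfA::pyroA), which lacks the gene of the bZIP-type stress transcription factor AtfA. Both strains thus carry the pyrG89 and pyroA4 alleles, each with a restored marker. Submerged cultures grew for 16 h and then received 0.2 mM CdCl2 or none, and mycelia were taken 0.5 h later. The 4 groups, untreated and CdCl2-treated THS30 and untreated and CdCl2-treated TNJ92, had 3 biological replicates each, which are given below in the order of their numbers. The cultures stood for 1 reference strain and 1 mutant strain, so that the deletion cannot be told apart from other differences between these 2 strains.

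Library totals ran from 8721119 to 13641031 counts. The deleted gene *atfA* (AN2911) had 301 to 357 CPM (counts scaled to library size by TMM) in untreated and 232 to 242 CPM in CdCl2-treated THS30, against 26.1 to 27.4 and 17.3 to 25.4 CPM in TNJ92, with no overlap between the strains. Defining genes of conidiation were low but not at 0 in the mycelia, with *brlA* at 1.35 to 7.57 CPM, *abaA* at 1.53 to 3.74 CPM and *wetA* at 1.80 to 8.65 CPM. The spore wall gene *rodA* had 1.75 to 57.1 CPM, and the pigment genes *wA* and *yA* had 4.53 to 15.5 and 7.79 to 21.2 CPM. Of these 6 conidiation genes, 3 were lower in TNJ92 in either condition, beside 29.6% of all genes tested without and 27.8% with CdCl2. In TNJ92 0 of them were higher in edgeR, at an unadjusted p under 0.05 and in DESeq2, beside 32% and 27.8% in edgeR. With CdCl2, *brlA* rose in both strains, by 1.38 ± 0.25 in THS30 and 1.40 ± 0.26 in TNJ92 on the log2 scale (edgeR, adjusted p = 0.000322 and 0.000194). *yA* fell in both, by -0.70 ± 0.14 and -0.58 ± 0.14 (edgeR, adjusted p = 0.000551 and 0.00232). These were 2 of 6 genes called in each strain, beside 43.9% and 56.5% of all genes. The part of the conidiation genes in the results was not tested. Each comparison of 2 groups set 3 against 3 libraries, and its p value in the main model rests on a spread between cultures estimated from all 4 groups.

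AtfA belongs to the ATF/CREB family, whose members bind DNA at sites with the core TGACGT. Both pyruvate decarboxylase genes appear with such putative sites in the promoter analysis of the study. That analysis covered chosen gene groups, and the 2 genes were in its glycolysis group, where most genes had no such site. The *alc* genes and *aldA* are in none of the groups that it names, so nothing is known here about sites in their promoters. The sites are shown because the strains compared differ in this factor. The core is in capitals and the flanking bases are in lower case:
pdcA: TGACGTata
pdcB: TGACGTgct
The flanks of the 2 sites differ. Their presence is a description of these letters and does not show binding.

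The 7 genes had unlike levels, with 1 abundant pyruvate decarboxylase and 1 abundant alcohol dehydrogenase transcript. On the RPKM scale (reads scaled by transcript length and library total), *pdcA* ranked between 6 and 30 among the 10988 genes over the 12 libraries, at 2586 to 5086 RPKM. *alcC* ranked between 12 and 90, at 1609 to 3792 RPKM. *aldA* followed at ranks 587 to 1943 with 57.9 to 209 RPKM.

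The other 4 genes were far less abundant. *pdcB*, the second pyruvate decarboxylase gene, had 13.6 to 37.7 RPKM (ranks 2955 to 5144), and *alcA* had 7.53 to 74.5 RPKM (ranks 1720 to 6535). *alcB* had 2.85 to 6.44 RPKM (ranks 6571 to 7634) and *alcR* 2.20 to 6.10 RPKM (ranks 6799 to 7663). For *alcB* these levels rested on 66 to 145 counts per library, and for *alcR* on 74 to 184 counts.

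The order of the levels was *pdcA*, *alcC* and *aldA* in all 4 groups, with no overlap between neighbours. In THS30, *pdcB* came next, followed by *alcA*. In untreated TNJ92, *alcA* at 47.9 to 61.8 RPKM stood above *pdcB* at 13.6 to 15.1 RPKM. In CdCl2-treated TNJ92 these neighbours overlapped, with *alcA* at 12.8 to 74.5 and *pdcB* at 29.7 to 37.7 RPKM. *alcB* and *alcR* were the lowest in every group, and their RPKM values overlapped in both groups of TNJ92. In THS30 they did not overlap but lay close, at 6.16 ± 0.35 RPKM for *alcB* and 4.71 ± 0.88 RPKM for *alcR* in untreated cultures (SD, n = 3).

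**Figure D1:**
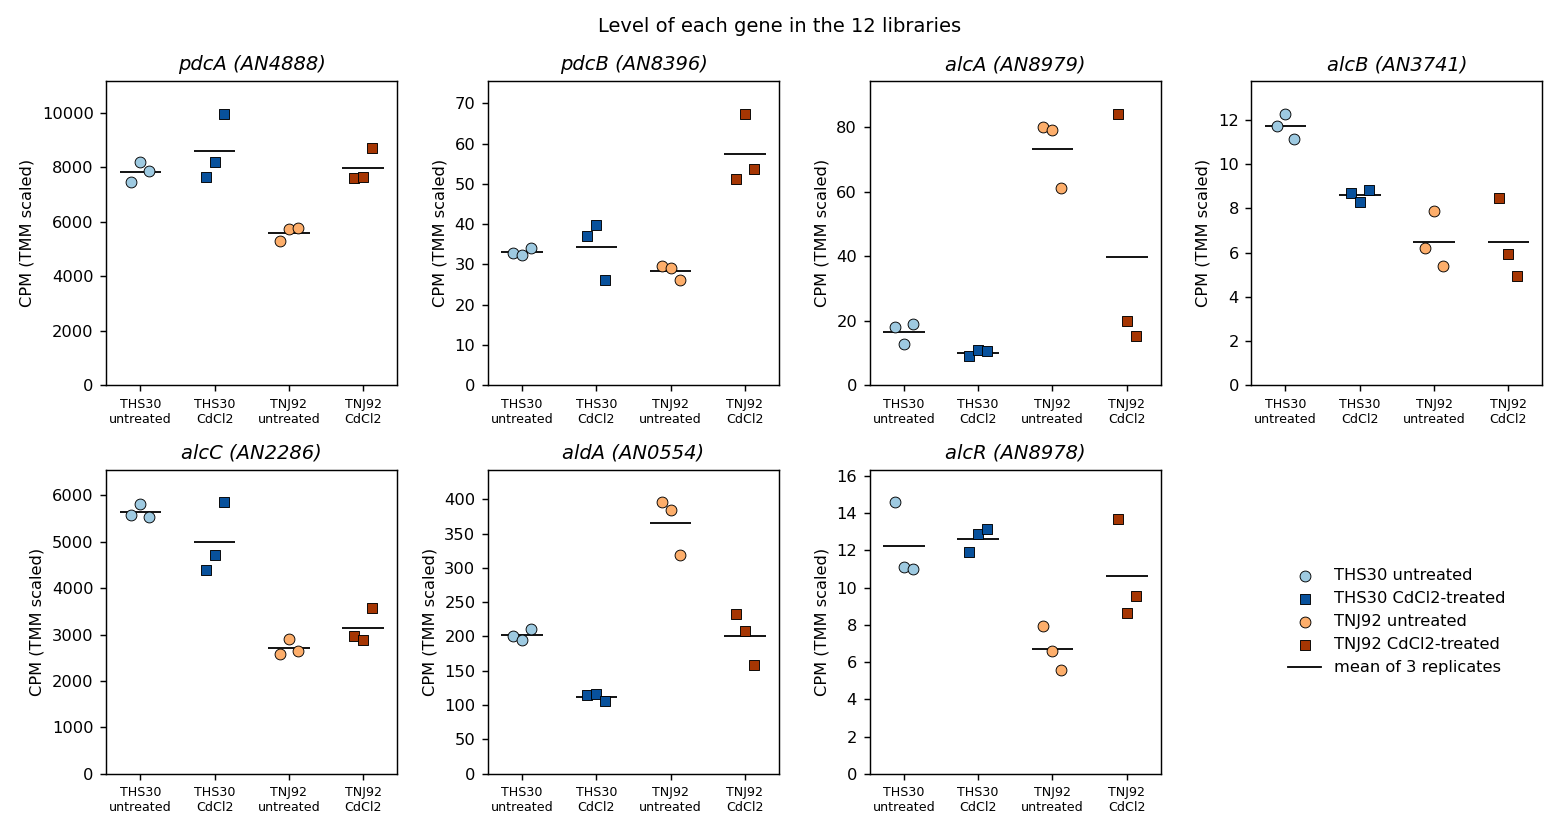
CPM of each of the 7 genes in the 12 libraries, with 1 panel per gene and a linear axis from 0. Points are libraries, grouped by strain and treatment, and lines are means of 3 replicates. The treated cultures of TNJ92 stand above all others for *pdcB*, both strains step down with CdCl2 for *aldA*, and 1 treated culture of TNJ92 stands at 84.2 CPM for *alcA* beside 20.0 and 15.3 CPM in the other replicates.

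All 7 genes passed the filter on low counts. In THS30, *aldA* fell (1 of 7 genes), and 0 of the 7 genes rose in edgeR, at an unadjusted p under 0.05 or in DESeq2, beside 43.9% of the 9070 genes tested that passed the test in either direction (22.5% higher and 21.5% lower). In TNJ92, *pdcA*, *pdcB* and *alcR* rose and *aldA* fell, 4 of 7 genes beside a background of 56.5% (28.3% higher and 28.2% lower). The share in TNJ92 was near its background. The libraries with and without CdCl2 did not overlap for 3 of 7 genes in THS30 and for 4 of 7 in TNJ92, beside 55.4% and 60.9% of all genes tested. The median log2 fold change of the 7 genes was -0.18 in THS30 and 0.21 in TNJ92, against 0.00 over all genes tested in both. As whole cultures were sequenced, a change in the share of cells that use a gene and a change of its RNA per cell cannot be told apart.

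The strains differed in 6 of the 7 genes without CdCl2. *alcA* and *aldA* were higher in TNJ92, and *pdcA*, *alcB*, *alcC* and *alcR* were lower, beside a background of 61.6% called (32% higher and 29.6% lower). With CdCl2, *pdcB*, *alcA* and *aldA* were higher and *alcC* was lower in TNJ92, 4 of 7 genes beside 55.6% (27.8% higher and 27.8% lower). The libraries of the strains did not overlap for 7 of 7 genes without and for 4 of 7 with CdCl2, beside 66.3% and 62.8% of all genes tested. The difference between the 2 responses was past the test for *pdcB* only, 1 of 7 genes beside 26.7% of all genes. It was higher in TNJ92, and 4 of the 7 genes had an unadjusted p under 0.05 in that direction, namely *pdcA*, *pdcB*, *alcC* and *alcR*, beside 19% of all genes tested. In the opposite direction there were 0 genes in edgeR, at an unadjusted p under 0.05 and in DESeq2.

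**Figure D2:**
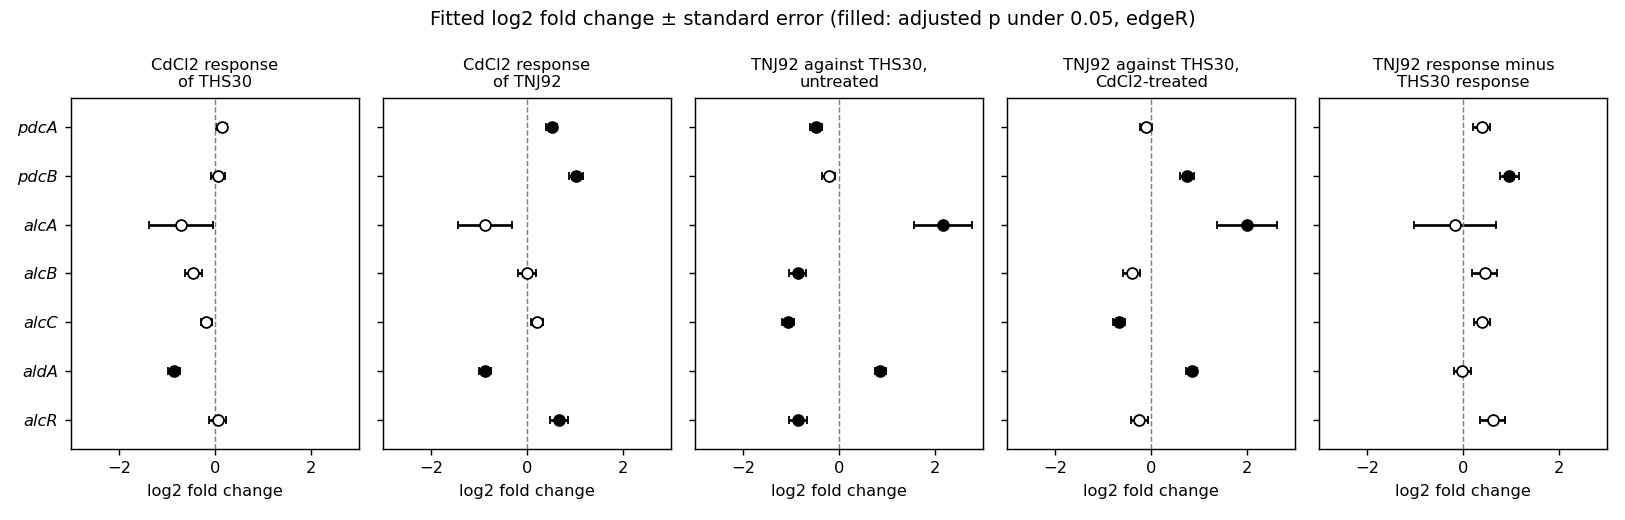
Fitted log2 fold change (horizontal axis) of the 7 genes in the 5 comparisons, with bars of 1 standard error and filled points where the adjusted p of edgeR was under 0.05. In the last panel *pdcB* has the only filled point, at 0.96, and the bars of *alcA* are the widest in each panel.

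*pdcB* was the gene whose response to CdCl2 differed between the strains. Its level was 32.7, 32.3 and 34 CPM in untreated and 37.0, 39.7 and 26.1 CPM in CdCl2-treated THS30. In TNJ92 it was 29.5, 29.2 and 26.2 CPM without and 51.3, 67.5 and 53.7 CPM with CdCl2. The 3 treated cultures of the mutant lay above all other 9 libraries, while the treated cultures of THS30 fell on both sides of the untreated ones.

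The log2 fold change of *pdcB* with CdCl2 was 1.02 ± 0.14 in TNJ92 (standard error, n = 3 per group, edgeR, adjusted p = 8.12e-06), a 2.03-fold increase. In THS30 it was 0.06 ± 0.14 (adjusted p = 0.767, edgeR), with a 95% interval from -0.22 to 0.33. The difference between the responses was 0.96 ± 0.20 (edgeR, adjusted p = 0.00164). It was past the test in each of the 17 alternatives run, with values of 0.83 to 1.08. Between the treated strains *pdcB* was 0.74 ± 0.14 higher in TNJ92 on the log2 scale (edgeR, adjusted p = 0.000205). Between the untreated strains the value was -0.22 ± 0.14 and not past the test (edgeR, adjusted p = 0.183), although the libraries of the 2 strains did not overlap, as was so for 66.3% of all genes tested.

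*pdcA* was the main transcript of this step. It had 7437, 8172 and 7861 CPM in untreated THS30 and 7626, 8203 and 9965 CPM in CdCl2-treated THS30. In TNJ92 it had 5276, 5732 and 5764 CPM without and 7585, 7635 and 8706 CPM with CdCl2. The untreated mutant was thus below all other groups, and the treated mutant overlapped with both groups of THS30.

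*pdcA* rose with CdCl2 in TNJ92 by a log2 fold change of 0.51 ± 0.12 (edgeR, adjusted p = 0.0013), and it was lower in untreated TNJ92 than in untreated THS30, at -0.48 ± 0.12 (edgeR, adjusted p = 0.00181). The response of THS30 was 0.14 ± 0.12 (edgeR, adjusted p = 0.369) and the difference between the treated strains was -0.11 ± 0.12 (edgeR, adjusted p = 0.452). The difference between the responses, 0.38 ± 0.17, did not pass the test (edgeR, adjusted p = 0.106). Without THS30 CdCl2-treated replicate 3, the library with 9965 CPM, it was 0.53 ± 0.13 and past it (adjusted p = 0.00534, edgeR, range over the alternatives 0.00534 to 0.217). With library totals instead of TMM, which moved the median of all genes to 0.13 in THS30 and 0.15 in TNJ92, the response of THS30 was 0.26 ± 0.10 (adjusted p = 0.0403, edgeR, range 0.0403 to 0.756).

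The share of the 2 decarboxylase transcripts moved with these changes. The ratio of *pdcA* to *pdcB* on the RPKM scale was 227 ± 13.2 in untreated and 253 ± 96.8 in CdCl2-treated THS30 (SD, n = 3). In TNJ92 it was 190 ± 19.8 without and 135 ± 24.1 with CdCl2. The treated mutant had ratios of 108 to 155, below those of the other groups, which ran from 171 to 365. *pdcB* remained the minor transcript in every library.

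Among the alcohol dehydrogenase genes, *alcC* was the abundant one and was lower in the mutant. It had 5577, 5818 and 5529 CPM in untreated and 4391, 4715 and 5850 CPM in CdCl2-treated THS30. TNJ92 had 2584, 2905 and 2643 CPM without and 2965, 2881 and 3572 CPM with CdCl2. All 6 libraries of TNJ92 lay below all 6 of THS30.

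*alcC* was lower in TNJ92 by -1.06 ± 0.12 on the log2 scale in untreated cultures (edgeR, adjusted p = 1.19e-06) and by -0.67 ± 0.12 with CdCl2 (edgeR, adjusted p = 0.00019), that is 0.481-fold and 0.630-fold of the level of THS30. Both differences were past the test in all 18 alternatives. Its response to CdCl2 was -0.18 ± 0.12 in THS30 (edgeR, adjusted p = 0.25) and 0.21 ± 0.12 in TNJ92 (edgeR, adjusted p = 0.148). Without THS30 CdCl2-treated replicate 3, the response of THS30 was -0.37 ± 0.10 (edgeR, adjusted p = 0.00767, range over the alternatives 0.00767 to 0.683) and the difference between the responses was 0.56 ± 0.13 (edgeR, adjusted p = 0.00591, range 0.00591 to 0.249), against 0.39 ± 0.17 with all libraries (edgeR, adjusted p = 0.106). With library totals *alcC* was past the test in TNJ92, at 0.36 ± 0.10 (edgeR, adjusted p = 0.007, range 0.007 to 0.504).

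*alcA*, the gene of the enzyme used for growth on ethanol, was high in the untreated mutant and uneven in the treated one. It had 18.1, 12.6 and 18.8 CPM in untreated and 8.86, 10.7 and 10.5 CPM in CdCl2-treated THS30. Untreated TNJ92 had 79.9, 79.2 and 61.0 CPM, and treated TNJ92 had 84.2, 20.0 and 15.3 CPM. Replicate 1 of treated TNJ92 was thus the highest of the 12 libraries, while replicates 2 and 3 of this group were near untreated THS30. The untreated libraries of the 2 strains did not overlap.

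*alcA* was 2.16 ± 0.60 higher in untreated TNJ92 on the log2 scale (edgeR, adjusted p = 0.0128), a 4.46-fold difference that was past the test in all 18 alternatives. Between the treated strains the value was 1.99 ± 0.62 (edgeR, adjusted p = 0.0246). Without TNJ92 CdCl2-treated replicate 1 it was 0.81 ± 0.19 (edgeR, adjusted p = 0.00196, range over the alternatives 0.00153 to 0.096). It was not past the test when any of the treated THS30 replicates was left out (adjusted p = 0.061 to 0.0729, edgeR). The call was also lost with only the groups compared, at 1.98 ± 0.81 (edgeR, adjusted p = 0.096).

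The response of *alcA* to CdCl2 in TNJ92 depended on the same library. With all libraries the response was -0.88 ± 0.56 (edgeR, adjusted p = 0.212), and without replicate 1 of treated TNJ92 it was -2.05 ± 0.18 (edgeR, adjusted p = 2.29e-07, range 2.29e-07 to 0.457). It was past the test in 1 of 18 alternatives. Replicate 1 is singled out by its own *alcA* level, and leaving it out lowers the spread of the gene tested, so that this p value is a description only. In THS30 the response was -0.71 ± 0.66 (edgeR, adjusted p = 0.423), with treated libraries all below untreated ones. Groups without overlap, in either direction, were found for 55.4% of all genes in that comparison. Without that library of TNJ92 the response of THS30 was -0.71 ± 0.17 (edgeR, adjusted p = 0.00385, range 0.00385 to 0.592), since the spread of that library no longer entered the common model. The difference between the responses was -0.17 ± 0.86 (edgeR, adjusted p = 0.911) with and -1.34 ± 0.25 (edgeR, adjusted p = 0.00118, range 0.00118 to 1.0) without that library.

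Over the whole transcriptome, replicate 1 of treated TNJ92 lay within the range of the other libraries, but had more low genes than replicates 2 and 3 of its group. Among 6680 genes with a mean of at least 10 CPM, 3 were more than 2-fold above both other replicates in this library and 21 more than 2-fold below. For the other 11 libraries these numbers ran from 0 to 38 and from 0 to 36. Replicate 2 of treated TNJ92 had 2 above and 3 below, and replicate 3 had 0 above and 3 below. The level in replicate 1 over the mean of replicates 2 and 3 was 4.77 for *alcA*, 1.51 for *alcR*, 1.27 for *aldA* and 0.919 for *alcC*.

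*alcB*, a further alcohol dehydrogenase gene, was low throughout. It had 11.7, 12.3 and 11.2 CPM in untreated and 8.69, 8.28 and 8.83 CPM in CdCl2-treated THS30. TNJ92 had 6.21, 7.88 and 5.41 CPM without and 8.47, 5.95 and 4.96 CPM with CdCl2. Untreated THS30 was above all other groups, and both groups of TNJ92 overlapped.

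*alcB* was lower in untreated TNJ92 than in untreated THS30, at -0.86 ± 0.18 on the log2 scale (edgeR, adjusted p = 0.000617). The response of THS30, -0.45 ± 0.18, lay at the threshold (edgeR, adjusted p = 0.0504) and was past it in 10 of the 18 alternatives (range 0.0135 to 0.166). In TNJ92 the response was 0.00 ± 0.19 (edgeR, adjusted p = 0.997). Between the treated strains the value was -0.41 ± 0.18 (edgeR, adjusted p = 0.0675), and without TNJ92 CdCl2-treated replicate 1 it was -0.65 ± 0.18 (edgeR, adjusted p = 0.00668, range 0.00668 to 0.276). The difference between the responses was 0.45 ± 0.26 (edgeR, adjusted p = 0.224).

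The balance of the dehydrogenase transcripts differed between the strains. The ratio of *alcC* to *alcA* on the RPKM scale was 285 ± 74.4 in untreated and 400 ± 46.4 in CdCl2-treated THS30 (SD, n = 3). It was 30.2 ± 4.46 in untreated TNJ92, and in treated TNJ92 it ran from 28.4 to 188. The ratio of *alcC* to *alcB* varied less, with group means of 496 to 677. *alcC* was the most abundant dehydrogenase transcript in every library.

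*aldA*, the gene of the step from acetaldehyde to acetate, changed most evenly. It had 200.0, 195 and 210 CPM in untreated and 114, 116 and 105 CPM in CdCl2-treated THS30. TNJ92 had 395, 384 and 318 CPM without and 233, 209 and 158 CPM with CdCl2. Treated cultures lay below untreated ones in either strain with no overlap, and the mutant lay above THS30 in either condition with no overlap.

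The log2 fold change of *aldA* with CdCl2 was -0.85 ± 0.12 in THS30 (edgeR, adjusted p = 3.26e-05) and -0.87 ± 0.12 in TNJ92 (edgeR, adjusted p = 8.64e-06). The difference between these responses was -0.02 ± 0.17 (edgeR, adjusted p = 0.946), with a 95% interval from -0.35 to 0.31. The mutant was higher by 0.86 ± 0.12 without CdCl2 (edgeR, adjusted p = 8.36e-06) and by 0.84 ± 0.12 with it (edgeR, adjusted p = 1.48e-05). All 4 of these calls were kept in all 18 alternatives.

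*alcR*, whose protein activates *alcA* and *aldA*, was lower in the untreated mutant. It had 14.6, 11.1 and 11.0 CPM in untreated and 11.9, 12.9 and 13.2 CPM in CdCl2-treated THS30. TNJ92 had 7.96, 6.57 and 5.56 CPM without and 13.7, 8.63 and 9.54 CPM with CdCl2. The untreated mutant was below all other groups.

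*alcR* was lower in untreated TNJ92 by -0.86 ± 0.19 on the log2 scale (edgeR, adjusted p = 0.000808), while *alcA* and *aldA* were higher in the same cultures. It rose with CdCl2 in TNJ92 by 0.67 ± 0.19 (edgeR, adjusted p = 0.00576), and without TNJ92 CdCl2-treated replicate 1 the value was 0.44 ± 0.18 and no longer past the test (edgeR, adjusted p = 0.0503, range 0.00162 to 0.0503). The response of THS30 was 0.06 ± 0.18 (edgeR, adjusted p = 0.821). Between the treated strains the value was -0.25 ± 0.18 (edgeR, adjusted p = 0.241) and without that library -0.48 ± 0.17 (edgeR, adjusted p = 0.0323, range 0.0323 to 0.626). The difference between the responses was 0.61 ± 0.26 (edgeR, adjusted p = 0.0939).

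**Figure D3:**
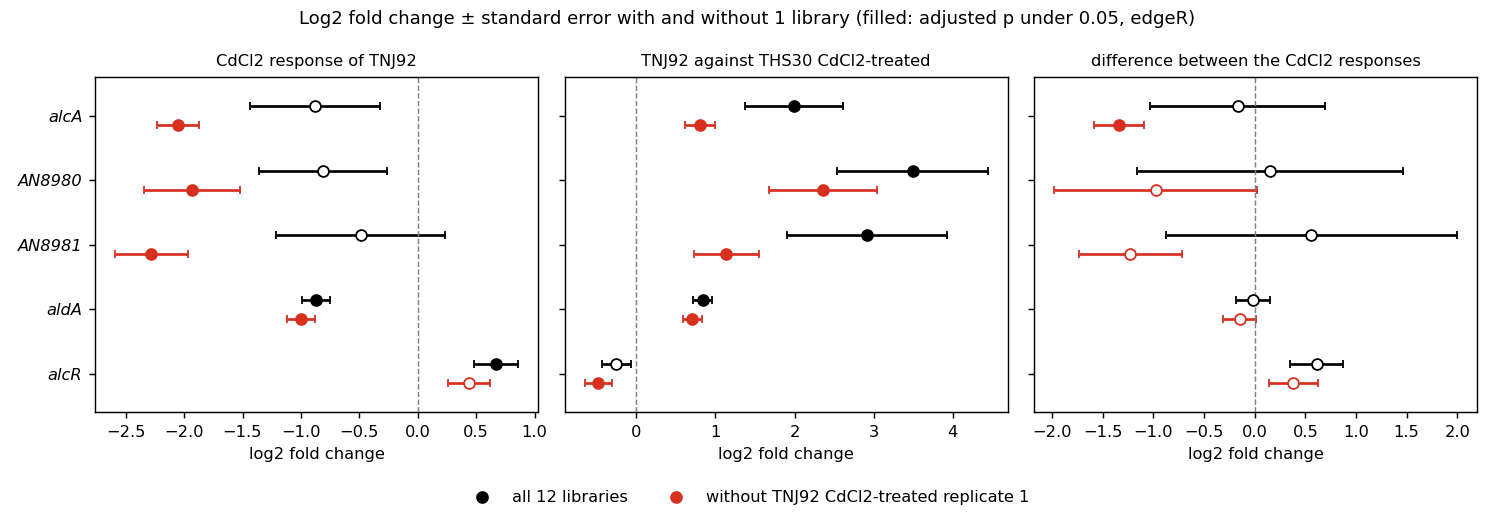
Log2 fold change (horizontal axis) with bars of 1 standard error for *alcA*, the neighbouring genes AN8980 and AN8981, *aldA* and *alcR*, with all 12 libraries in black and without TNJ92 CdCl2-treated replicate 1 in red, filled where the adjusted p of edgeR was under 0.05. The response of *alcA* in TNJ92 moves from -0.88 to -2.05, whereas that of *aldA* moves from -0.87 to -1.0.

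The genes *alcR* and *alcA* carry consecutive identifiers, and 8 further identifiers from AN8974 to AN8983 surround them. Of these 8 genes 7 passed the filter, and AN8976 had at most 0.0901 CPM. Of the 7, 0 rose (also 0 at an unadjusted p under 0.05 and in DESeq2) and 1 fell in THS30, 2 rose and 0 fell in TNJ92 (also 0 lower by both other counts), 3 were higher and 3 lower in untreated TNJ92, and 3 were higher and 2 lower in treated TNJ92. Beside all genes tested, 2 of 7 called in the response of TNJ92 stood below the 56.5% of that comparison. Between the strains 6 and 5 of 7 were called, where all genes had 61.6% and 55.6%. The counts between the strains cannot be read against these shares. AN8980 had at most 0.711 CPM in THS30 and AN8974 at most 0.300 CPM in TNJ92, so that each passed the filter through the other strain. No source used here gives their roles.

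AN8980 and AN8981, next to *alcA*, had a profile like that of *alcA*. They had the largest fitted values of these genes in the response of THS30, by which they are named, but neither passed the test there, at -0.96 ± 1.40 for AN8980 (edgeR, adjusted p = 0.617) and -1.05 ± 1.24 for AN8981 (edgeR, adjusted p = 0.534). AN8981 had 2.02, 2.29 and 2.18 CPM in untreated and 0.695, 1.42 and 0.991 CPM in CdCl2-treated THS30. In TNJ92 it had 14.4, 10.5 and 8.78 CPM without and 19.2, 3.28 and 1.35 CPM with CdCl2. Replicate 1 of treated TNJ92 was the highest library, as for *alcA*. AN8980 stayed at or under 0.711 CPM in THS30, and had 7.24, 3.24 and 3.45 CPM in untreated and 5.50, 1.53 and 0.901 CPM in treated TNJ92. In that replicate 1, AN8981 was 8.30 times and AN8980 4.53 times the mean of replicates 2 and 3, while the next genes on either side, AN8977 and AN8982, were at 1.18 and 1.00 times.

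In untreated cultures AN8980 was 3.34 ± 0.79 higher in TNJ92 on the log2 scale (edgeR, adjusted p = 0.0037) and AN8981 2.36 ± 0.89 (edgeR, adjusted p = 0.0446). Between the treated strains they were 3.49 ± 0.95 (edgeR, adjusted p = 0.00941) and 2.92 ± 1.01 higher (edgeR, adjusted p = 0.0355). Each call of AN8980 was kept in all 18 alternatives, and those of AN8981 in 8 and 10 of them, with adjusted p of up to 0.112 and 0.123. Without TNJ92 CdCl2-treated replicate 1, an alternative chosen for these 2 genes after their values were seen, the responses of TNJ92 were -1.93 ± 0.41 for AN8980 (edgeR, adjusted p = 0.00101, range 0.00101 to 0.647) and -2.28 ± 0.31 for AN8981 (edgeR, adjusted p = 1.6e-05, range 1.6e-05 to 0.994), against -0.81 ± 0.55 and -0.49 ± 0.72 with all libraries (edgeR, adjusted p = 0.233 and 0.596). With the replicate number as a block and all libraries, the value of AN8980 was -0.92 ± 0.24 and past the test (edgeR, adjusted p = 0.00335).

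On the other side of *alcR*, AN8977 was higher in TNJ92 as *alcA* was, by 1.83 ± 0.34 on the log2 scale without CdCl2 (edgeR, adjusted p = 0.000179) and by 1.61 ± 0.29 with it (edgeR, adjusted p = 0.000153), at levels of 0.451 to 2.82 CPM. AN8974 and AN8975 were nearly silent in the mutant, with 12.7 to 19 and 14.8 to 25.8 CPM in THS30 against 0.00 to 0.300 and 0.0796 to 1.07 CPM in TNJ92. AN8975 was past the test in the response of TNJ92 (edgeR, adjusted p = 0.0177), at levels of at most 1.07 CPM, but not without TNJ92 untreated replicate 1 or 2 or CdCl2-treated replicate 2 (adjusted p = 0.0669 to 0.0931). AN8982 fell in THS30, from 9.62 to 9.96 CPM down to 4.34 to 7.57 CPM, and its responses differed between the strains by 1.01 ± 0.25 on the log2 scale (edgeR, adjusted p = 0.00565). AN8983 rose in TNJ92 by 1.04 ± 0.32 (edgeR, adjusted p = 0.011), but without TNJ92 CdCl2-treated replicate 3 the value was 0.80 ± 0.35 (edgeR, adjusted p = 0.0682, range over the alternatives 0.00394 to 0.0682). The difference between its responses was 1.53 ± 0.47 (edgeR, adjusted p = 0.0237). It was not past the test in DESeq2 (1.55 ± 0.63, adjusted p = 0.0524) or without THS30 untreated replicate 2 or 3, THS30 CdCl2-treated replicate 1 or TNJ92 CdCl2-treated replicate 3 (edgeR, adjusted p = 0.0526 to 0.065).

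**Figure D4:**
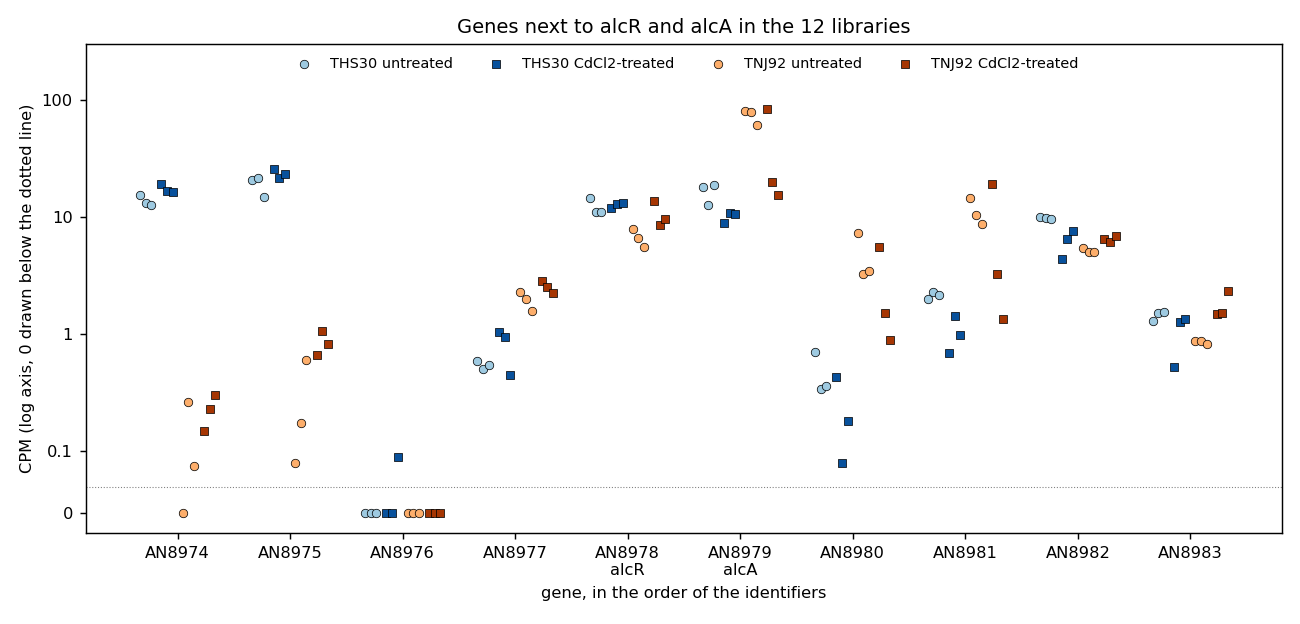
CPM (log axis, values of 0 drawn below the dotted line) of the 10 genes from AN8974 to AN8983 in the order of their identifiers, with 1 point per library and groups by colour. *alcA*, AN8980 and AN8981 are high in untreated TNJ92 and in replicate 1 of treated TNJ92, AN8974 and AN8975 are high in THS30, and *alcR* lies between 5.56 and 14.6 CPM throughout.

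The genes around pyruvate and acetate, 13 genes chosen as neighbours of the pathway in metabolism and its regulation, mostly fell with CdCl2 in both strains. In THS30, 10 of 13 fell and 0 rose (also 0 at an unadjusted p under 0.05 and in DESeq2), and in TNJ92 9 fell and 2 rose, beside 21.5% lower and 22.5% higher of all genes tested in THS30 and 28.2% and 28.3% in TNJ92. Their median log2 fold change was -0.48 in THS30 and -0.56 in TNJ92, against 0.00 over all genes tested. In untreated TNJ92, 5 were higher and 5 lower than in THS30, and with CdCl2 5 were higher and 4 lower, that is 10 and 9 of 13 called beside 61.6% and 55.6% of all genes. The responses differed in 5 genes, 3 upwards and 2 downwards, beside 26.7%.

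On the side of acetate use, the phosphoenolpyruvate carboxykinase gene *acuF*, needed for growth on acetate and ethanol, had 1387 to 1665 CPM in untreated and 325 to 536 CPM in treated THS30, and 452 to 633 and 131 to 175 CPM in TNJ92. It fell by -1.88 ± 0.19 in THS30 (edgeR, adjusted p = 4.91e-06) and by -1.89 ± 0.19 in TNJ92 (edgeR, adjusted p = 1.59e-06), with a difference between the responses of -0.01 ± 0.25 (edgeR, adjusted p = 0.994). Unlike *aldA* it was lower in the mutant, at -1.43 ± 0.18 without CdCl2 (edgeR, adjusted p = 1.41e-05). The malate synthase gene *acuE* fell in THS30 by -1.41 ± 0.37 (edgeR, adjusted p = 0.0132) and in TNJ92 by -1.19 ± 0.38 (edgeR, adjusted p = 0.0242). These calls were lost without THS30 CdCl2-treated replicate 1 or 2 (adjusted p = 0.0511 and 0.0515), and in TNJ92 with only the groups compared (adjusted p = 0.0554) and without TNJ92 untreated replicate 3, where the value was -0.71 ± 0.29, or CdCl2-treated replicate 2 or 3 (edgeR, adjusted p = 0.0671 to 0.0724).

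The isocitrate lyase gene *acuD* of the glyoxylate cycle, which allows growth on acetate, differed in its responses. It had 44.5, 62.4 and 81.3 CPM in untreated and 37.9, 41.3 and 52.2 CPM in treated THS30, and 13.1, 12.4 and 18.7 CPM in untreated and 40.9, 33.8 and 33.6 CPM in treated TNJ92. The untreated mutant was below all other groups, as for *pdcA* and *alcR*. *acuD* rose in TNJ92 by 1.29 ± 0.22 (edgeR, adjusted p = 0.000301), and the difference between the responses was 1.81 ± 0.30 (edgeR, adjusted p = 0.000917). Its value in THS30 was -0.52 ± 0.21 and not past the test (edgeR, adjusted p = 0.0569), but past it in 5 of 18 alternatives (range 0.00506 to 0.233).

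On the side of pyruvate, the pyruvate kinase gene *pkiA* had 925 to 993 CPM in untreated and 850 to 943 CPM in treated THS30, and 1158 to 1258 and 765 to 867 CPM in TNJ92. It fell in TNJ92 by -0.56 ± 0.09 (edgeR, adjusted p = 5.07e-05), in the strain where *pdcA* and *pdcB* rose, and its responses differed by -0.47 ± 0.13 (edgeR, adjusted p = 0.0104). Of the genes listed by the study under pyruvate metabolism without a name, AN5162 fell in both strains and more in TNJ92, with a difference of -0.58 ± 0.11 (edgeR, adjusted p = 0.00116). Its call in THS30 was lost with library totals (-0.13 ± 0.08, adjusted p = 0.163) and without THS30 untreated replicate 3 (-0.23 ± 0.09, edgeR, adjusted p = 0.0611). AN4462 fell in THS30 by -0.72 ± 0.11 (edgeR, adjusted p = 5.18e-05), with a difference between the responses of 0.99 ± 0.15 (edgeR, adjusted p = 0.000161). Its value in TNJ92 was 0.27 ± 0.11 (edgeR, adjusted p = 0.0428) and past the test in 9 of 18 alternatives. The call was lost with no filter on low counts (edgeR, adjusted p = 0.0724) and with only the groups compared (edgeR, adjusted p = 0.0674). It was also lost without THS30 untreated replicate 2 or 3 or CdCl2-treated replicate 2, and without TNJ92 untreated replicate 2 or 3 or CdCl2-treated replicate 1 or 2 (edgeR, adjusted p of up to 0.279).

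The genes that the study lists under glycolysis, the pathway that yields pyruvate, fell more often in THS30 than they rose. Of 19 genes other than the decarboxylases 18 were tested. Of these 18, 10 fell and 3 rose in THS30, and 3 fell and 5 rose in TNJ92, with median log2 fold changes of -0.39 and -0.07. The shares of all genes were 21.5% lower and 22.5% higher in THS30 and 28.2% and 28.3% in TNJ92, so that the count of rises in TNJ92 was near its background. In untreated TNJ92, 5 were higher and 8 lower than in THS30, and with CdCl2 8 were higher and 2 lower, that is 13 and 10 of 18 called beside 61.6% and 55.6%. The responses differed in 6 genes, with 5 higher and 1 lower in TNJ92, beside 26.7%. *pkiA* and the lactate dehydrogenase gene *ldhA* are in this list and in that of pyruvate and acetate.

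Among them, the triosephosphate isomerase gene *tpiB* had 184 to 195 CPM in untreated and 134 to 166 CPM in treated THS30, and 104 to 125 and 149 to 157 CPM in TNJ92. It fell in THS30 by -0.36 ± 0.09 (edgeR, adjusted p = 0.00484) and rose in TNJ92 by 0.37 ± 0.09 (edgeR, adjusted p = 0.00274). The phosphoglycerate mutase gene *pgmA* fell in THS30 by -1.10 ± 0.11 (edgeR, adjusted p = 8.94e-07), and its value in TNJ92 was -0.21 ± 0.10 (edgeR, adjusted p = 0.1). The differences between the responses were 0.72 ± 0.13 for *tpiB* (edgeR, adjusted p = 0.000649), 0.89 ± 0.15 for *pgmA* (edgeR, adjusted p = 0.000351) and 0.52 ± 0.11 for the hexokinase gene *hxkA* (edgeR, adjusted p = 0.00228).

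Of the genes named for the size of their responses, the aldolase gene *fbaA* fell in both strains. Its values were -1.12 ± 0.11 in THS30 (edgeR, adjusted p = 7.84e-07) and -0.66 ± 0.11 in TNJ92 (edgeR, adjusted p = 5.19e-05). *hxkC* of the hexokinase family also fell in both, by -0.86 ± 0.21 in THS30 (edgeR, adjusted p = 0.00545) and by -1.22 ± 0.21 in TNJ92 (edgeR, adjusted p = 0.000358). The difference between its responses was not past the test (edgeR, adjusted p = 0.429). *xprF*, a further hexokinase family gene, rose in both strains, by 0.69 ± 0.10 in THS30 (edgeR, adjusted p = 3.43e-05) and by 1.13 ± 0.10 in TNJ92 (edgeR, adjusted p = 5.17e-08). The responses differed by 0.46 ± 0.15 for *fbaA* (edgeR, adjusted p = 0.0322) and by 0.44 ± 0.14 for *xprF* (edgeR, adjusted p = 0.0253). These 2 differences were past the test in 10 and 11 of 17 alternatives.

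**Figure D5:**
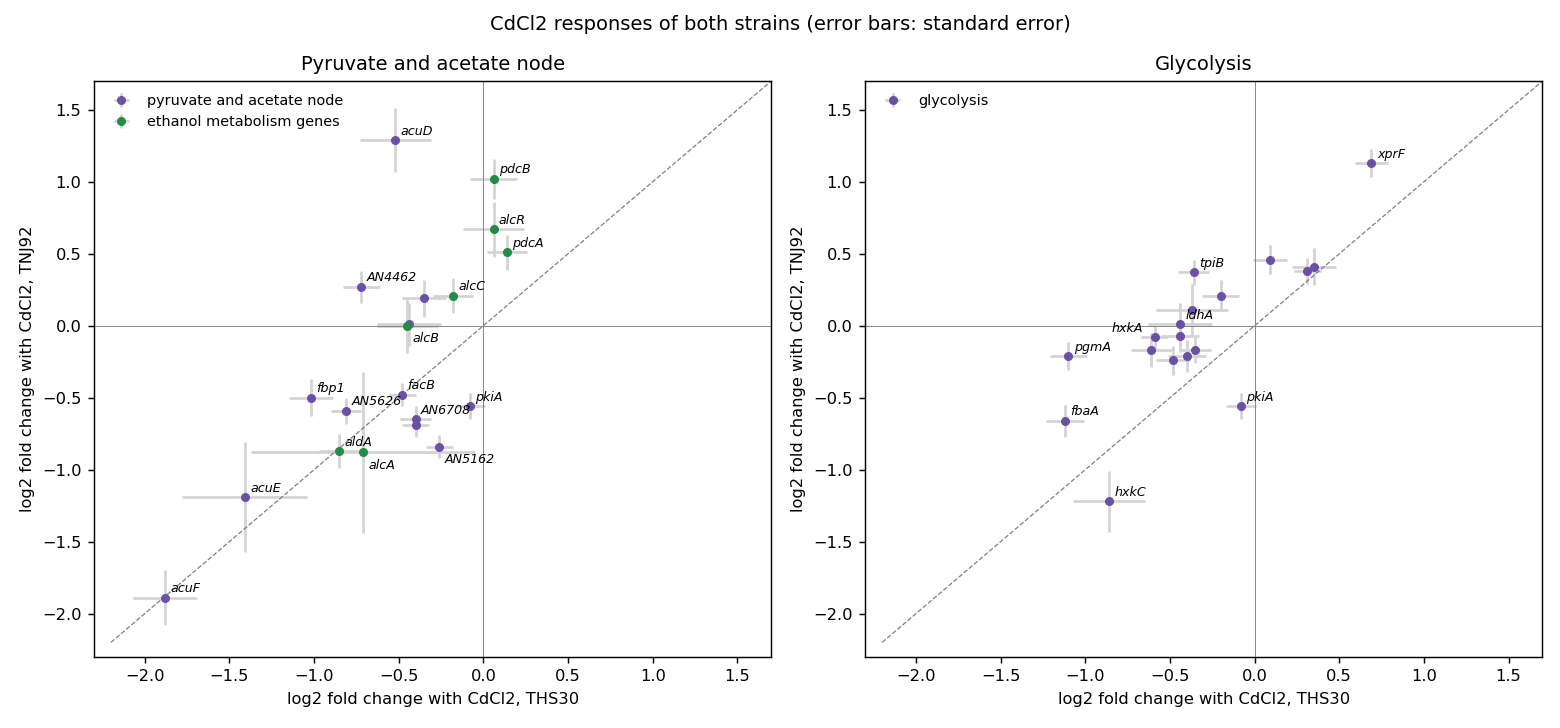
Log2 fold change with CdCl2 in THS30 (horizontal axis) and in TNJ92 (vertical axis), with bars of 1 standard error, for the genes around pyruvate and acetate with the 7 ethanol metabolism genes (left) and for the glycolysis genes (right), and a dashed line where both responses are equal. *pdcB* lies at 0.06 and 1.02 and *acuD* at -0.52 and 1.29, far above the line, while *aldA* (-0.85 and -0.87) and *acuF* (-1.88 and -1.89) lie on it.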

How the data were processed

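Counts, transcript lengths and RPKM values per gene and library were deposited by the authors, who aligned the reads (TruSeq libraries) with HISAT2 2.1.0 and used DESeq2 1.20.0 for their tests, per the submitters' processing notes. The deposited RPKM values follow from count, length and column total (largest relative difference 5.1e-15), and were used only to compare levels between genes. No source used here gives the counting program or its strand setting. Counts were tested with edgeR 4.0.16 (R 4.3.3): filterByExpr (minimum count 10, smallest group 3), TMM scaling, 1 robust quasi-likelihood model of the 4 groups, and Benjamini-Hochberg adjustment over 9070 genes with a threshold of 0.05. CPM values are TMM scaled, and the common biological coefficient of variation was 0.109. Counting error is small for *pdcA* and *alcC* and larger for genes of under 200 counts.

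The 7 genes and the lists were chosen with earlier results of these data known. Named genes were the 7 members, *atfA*, and of each list up to 4 genes called in the difference between the responses and the 2 largest changes per strain. Genes most alike were the 3 with the highest Pearson correlation of log2 CPM (prior count 2). A list by product names and protein or promoter sequences were planned but not used here, since the reference table (ASM1142v1) gives neither. The code was tested on simulated data. Alternatives were RLE scaling, library totals, no filter, DESeq2 1.42.0, only the groups compared, a replicate block and each library left out, for the list genes added after seeing the data. No 2 libraries were identical.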

Additional observations from a re-analysis of the deposited data

Results flagged for a closer look

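*pdcB* drew attention because its responses to CdCl2 differed between the strains by a test of the difference itself: the response of TNJ92 exceeded that of THS30 by 0.96 on the log2 scale (edgeR, adjusted p = 0.00164), with 3 of 3 treated cultures of TNJ92 above all untreated ones.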

How the results depend on the processing

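Of 623 values of the 7 genes under an alternative, 574 kept their direction and their side of the threshold, 26 passed it newly, 5 lost it and 18 changed sign. The cause was not tested. The number of the 7 genes called in the response of THS30, 1 in the report, was 2 with RLE scaling, 2 with library totals, 2 without a filter, 2 with the replicate block and 3 with only the groups compared, and 1 to 3 when libraries were left out. For the difference between the responses, 1 in the report, it was 3 with library totals, 2 with the replicate block, 2 with DESeq2 and 1 to 3 when libraries were left out. It was 4 to 4, 6 to 6 and 3 to 6 for the response of TNJ92, the untreated and the treated strains when libraries were left out. Without TNJ92 CdCl2-treated replicate 1 the treated strains differed in 6 genes, 4 with all libraries.

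Same-numbered libraries of different groups deviated from their group means with correlations of -0.13 to 0.32, over 0.1 in 10 of 18 pairs. The values were 0.1 to 0.27 for replicate 1, -0.13 to 0.09 for replicate 2 and 0.1 to 0.32 for replicate 3. The main model did not take the numbers as pairs, and the replicate block was run as an alternative. Whether same-numbered cultures share an effect was not tested. With the replicate block *alcB* in THS30 had -0.45 (adjusted p = 0.0322, edgeR), *alcB* between the treated strains -0.42 (adjusted p = 0.0446), *alcR* in the difference 0.59 (adjusted p = 0.0468), and AN8980 in TNJ92 -0.92 (adjusted p = 0.00335).

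Signs turned only for values that were not past the test. With library totals the response of *alcB* in TNJ92 was 0.15 and the difference of *aldA* 0.01. With libraries left out the ranges were -0.04 to 0.22 (*pdcA*), -0.06 to 0.16 (*pdcB*) and -0.03 to 0.19 (*alcR*) in THS30, -0.25 to 0.16 (*alcB*) and -2.28 to 0.01 (AN8981) in TNJ92, -0.19 to 0.03 (*pdcA*) between the treated strains, and -1.34 to 0.22 (*alcA*), -0.15 to 0.12 (*aldA*), -0.98 to 0.94 (AN8980) and -1.23 to 1.06 (AN8981) for the difference. With DESeq2 the difference of *pdcA* was 0.39 (adjusted p = 0.0478). Among the 7 genes, *alcA* had the largest standard errors (0.56 to 0.86), and *alcB* and *alcR* rest on the fewest counts.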

Other observations

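Genes whose log2 CPM followed *pdcA* and *pdcB* over the 12 libraries are given as a description, since the libraries share strains and treatments. Among 6680 genes with a mean of at least 10 CPM, the highest Pearson correlations with *pdcA* were those of AN6058 (0.959), AN4276 (0.958) and AN9031 (0.952). With *pdcB* they were those of AN0705 (0.947), AN8876 (0.943) and AN3180 (0.937). By Spearman's measure the leading genes were AN2703 (0.916), AN10261 (0.895) and AN6058 (0.895) for *pdcA*, and AN6779 (0.965), AN7255 (0.923) and AN5743 (0.916) for *pdcB*, so that 1 of 3 and 0 of 3 genes were shared by both measures. For *alcA*, added after its values were seen, AN4774 (0.949), AN4505 (0.944) and AN3921 (0.936) led by Pearson's measure. No source used here gives the roles of these genes.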
